A study of Homo sapiens with 5 samples.

Results

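The circadian clock genes examined here are BMAL1 (ARNTL in older annotations), CLOCK, PER1, PER2, PER3, CRY1, CRY2, NR1D1, BHLHE40 and BHLHE41, which are 10 of 20163 protein-coding genes. They were taken from a fixed list of names, and every Nrf2 or HIF1α ChIP-seq peak in the body of one of these genes or within 50 kb of it on hg19 was counted. This gave 64 of the 29781 peaks of the series. BEAS-2B is an immortalized line derived from human bronchial epithelium. All groups were starved of serum overnight and then kept for 6 h, either without arsenic (control) or with 1 μM inorganic arsenic (iAs). Chromatin of each condition was precipitated with an antibody against Nrf2 or against HIF1α, which gave 4 libraries with 1 library per antibody and condition, so no difference between conditions could be tested. Santa Cruz (Nrf2) and Abcam (HIF1α) are the antibody suppliers given in the labels, and Active Motif is the supplier given in the methods.

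The molecular clock is a feedback loop of transcription. BMAL1 and CLOCK pair through their PAS domains and bind E-boxes in the promoters of the PER and CRY genes, whose proteins return to the nucleus and inhibit the pair. NR1D1 (REV-ERBα) is a nuclear receptor that represses BMAL1, and BHLHE40 and BHLHE41 (DEC1 and DEC2) are repressors that bind E-boxes as well. HIF1α is itself a bHLH-PAS protein related to CLOCK and BMAL1, its core site shares letters with the E-box, and BHLHE40 is an established hypoxia-responsive gene. Nrf2 binds antioxidant response elements as a dimer with small MAF proteins, and these elements often contain a site of the AP-1 family.

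Without and with iAs, the lists hold 3204 and 7743 peaks of Nrf2, and 6008 and 12826 of HIF1α. The lists used here give positions without heights or read numbers, so that a missing peak means only that none was called. Positions are those of the peak centre from the canonical transcription start site (TSS) in the direction of transcription, with negative values upstream. A peak was counted as iAs-only when no control peak of that factor overlapped it, and as control-only in the reverse case.

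The sequences that carry the Nrf2 peaks are shown first, because each was taken from a peak of the iAs-treated cells and BHLHE40 and BHLHE41 had no Nrf2 peak in control cells. Each spans 201 bp of hg19 around the peak centre, with 100 bp to either side, read from the GRCh37 reference 5′ to 3′ on the strand of the gene, which is the minus strand for BHLHE41 and the plus strand for BMAL1 and BHLHE40. Capitals mark matches on either strand to the antioxidant response core TGACNNNGC, the AP-1 site TGACTCA or TGAGTCA, the E-box CACGTG, the hypoxia response core ACGTG or GCGTG, the ROR and REV-ERB element AGGTCA or the D-box TTATGTAA or TTACGTAA. These overlap, since an E-box holds a hypoxia core on both strands and the antioxidant core may hold an AP-1 site.
BMAL1, Nrf2 with iAs, +60.9 kb, chr11:13360122-13360322: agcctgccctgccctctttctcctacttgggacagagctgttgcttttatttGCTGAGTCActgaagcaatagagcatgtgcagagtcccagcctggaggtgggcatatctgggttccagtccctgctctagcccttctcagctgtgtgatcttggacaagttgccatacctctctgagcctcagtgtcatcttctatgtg
BHLHE40, Nrf2 with iAs, +1.10 kb, chr3:5022118-5022318: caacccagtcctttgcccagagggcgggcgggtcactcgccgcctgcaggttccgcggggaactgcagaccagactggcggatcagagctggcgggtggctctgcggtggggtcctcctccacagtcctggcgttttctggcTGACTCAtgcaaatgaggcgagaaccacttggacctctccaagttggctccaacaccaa
BHLHE40, Nrf2 with iAs, +7.53 kb, chr3:5028550-5028750: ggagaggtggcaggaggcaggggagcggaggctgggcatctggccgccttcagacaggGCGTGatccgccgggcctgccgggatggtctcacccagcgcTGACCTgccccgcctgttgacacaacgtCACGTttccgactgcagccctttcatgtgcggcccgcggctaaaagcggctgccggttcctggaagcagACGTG
BHLHE40, Nrf2 with iAs, +15.7 kb, chr3:5036681-5036881: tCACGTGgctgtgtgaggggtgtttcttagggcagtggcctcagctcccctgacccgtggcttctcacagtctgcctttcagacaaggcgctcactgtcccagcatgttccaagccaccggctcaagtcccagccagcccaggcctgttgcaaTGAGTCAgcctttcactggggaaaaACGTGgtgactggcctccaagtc
BHLHE41, Nrf2 with iAs, +10.9 kb, chr12:26267018-26267218: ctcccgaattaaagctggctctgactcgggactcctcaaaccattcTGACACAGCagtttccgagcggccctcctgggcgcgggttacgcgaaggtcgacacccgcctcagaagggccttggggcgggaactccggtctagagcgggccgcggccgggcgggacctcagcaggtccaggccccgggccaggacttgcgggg

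The same windows follow for HIF1α at the starts of BMAL1, PER2 and the DEC genes. BMAL1 is the only clock activator, and PER2 the only PER gene, with a HIF1α peak near the canonical TSS in control cells. PER2 lies on the minus strand.
BMAL1, HIF1α with iAs, -0.327 kb, chr11:13298910-13299110: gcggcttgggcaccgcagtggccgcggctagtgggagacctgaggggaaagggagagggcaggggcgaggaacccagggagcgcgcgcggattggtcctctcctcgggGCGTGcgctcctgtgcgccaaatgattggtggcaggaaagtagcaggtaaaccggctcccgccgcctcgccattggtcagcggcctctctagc
PER2, HIF1α in control cells, -0.385 kb, chr2:239197536-239197736: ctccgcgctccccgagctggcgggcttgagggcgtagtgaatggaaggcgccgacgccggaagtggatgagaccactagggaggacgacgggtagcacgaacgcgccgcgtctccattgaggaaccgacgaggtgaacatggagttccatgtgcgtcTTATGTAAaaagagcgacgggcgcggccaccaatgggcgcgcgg
BHLHE40, HIF1α with iAs, -0.761 kb, chr3:5020261-5020461: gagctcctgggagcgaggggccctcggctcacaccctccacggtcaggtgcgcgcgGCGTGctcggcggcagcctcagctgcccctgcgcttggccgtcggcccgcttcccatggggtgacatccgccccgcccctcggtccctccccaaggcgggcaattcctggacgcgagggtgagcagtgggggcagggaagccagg
BHLHE41, HIF1α with iAs, -1.54 kb, chr12:26279407-26279607: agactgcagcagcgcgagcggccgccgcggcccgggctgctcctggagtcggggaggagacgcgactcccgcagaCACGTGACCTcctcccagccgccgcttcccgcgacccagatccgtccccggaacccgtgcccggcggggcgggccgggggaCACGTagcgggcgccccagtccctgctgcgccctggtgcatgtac

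Shorter stretches show the remaining E-boxes of HIF1α peaks and AP-1 or antioxidant sites of Nrf2 peaks at these genes. Again they are on the strand of the listed gene, with the named motif in capitals.
PER1, HIF1α in both conditions, E-box of the peak at -4.14 kb: cctctctCACGTGtatctct
CRY2 neighbourhood (SLC35C1 start), HIF1α with iAs, E-box of the peak at -42.4 kb: ttaaggcCACGTGggggcgt
BHLHE41, HIF1α with iAs, E-box of the peak over the TSS: cgttccgCACGTGagctggg
PER3, Nrf2 in both conditions, antioxidant response core of the peak at +110 kb: aactgttGCTTAGTCActctgcg
PER3, Nrf2 in both conditions, AP-1 site of the peak at +110 kb: cgtagagTGAGTCAgaggcat
BHLHE40, Nrf2 with iAs, AP-1 site of the peak at +16.2 kb: tcccttcTGACTCAcctctgg

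For all 10 genes together, 2 Nrf2 peaks were found in control cells and 9 with iAs, 4.50 times as many, where the whole list was 2.42 times as long. For HIF1α the counts were 12 and 41, which is 3.42 times as many against 2.13 for the whole list. Only 7 of the 12 and 16 of the 41 had a clock gene as the nearest TSS, so this ratio includes many peaks nearer to other genes. In control cells, Nrf2 peaks lay at BMAL1 and PER3 only, which are 2 of 10 genes, where 20.0% of all protein-coding genes had such a peak. With iAs, BHLHE40 and BHLHE41 were added, giving 4 of 10 genes against a background of 35.0%. HIF1α peaks lay at 4 of 10 genes in control cells (BMAL1, PER1, PER2 and BHLHE40), against 45.5%, and at 10 of 10 with iAs, against 68.6%. The shares of clock genes were therefore near the background in the first 3 libraries and above it for HIF1α with iAs. For CLOCK and NR1D1, every such HIF1α peak lay nearer to the TSS of another gene. The clock genes had a median length of 41.1 kb where the median over all genes was 27.2 kb, which makes their search windows longer.

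**Figure D1:**
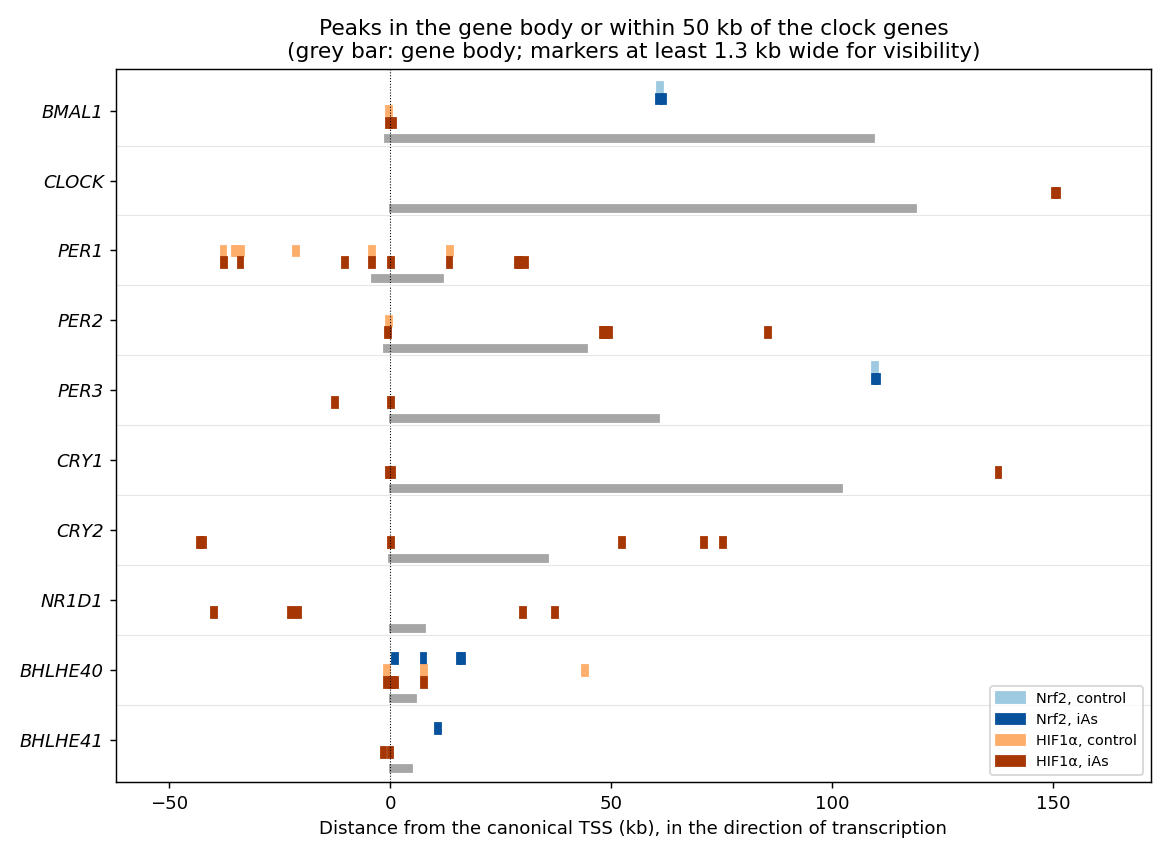
Peaks of the 4 libraries at each of the 10 clock genes, by distance from the canonical TSS in kb, with the gene body as a grey bar. Every gene has a HIF1α peak with iAs, and Nrf2 peaks appear at BMAL1, PER3, BHLHE40 and BHLHE41.

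Many of these peaks sat at the start of another gene. A clock gene had the nearest TSS for 1 of the 2 Nrf2 peaks in control cells, 7 of 9 with iAs, 7 of 12 HIF1α peaks in control cells and 16 of 41 with iAs. Of the 41 HIF1α peaks with iAs, 30 (73.2%) were centred within 1 kb of the TSS of some protein-coding gene, as were 72.6% of all peaks of that library. In control cells this held for 4 of 12 (33.3%), where the whole library had 48.7%. None of the Nrf2 peaks at clock genes was centred there, against 12.0% of the whole control list and 11.9% of the whole iAs list.

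A stricter count kept only peaks with an edge within 1 kb of the clock gene's own TSS. By this count Nrf2 had 0 of 10 genes in control cells, where 2.32% of all genes had such a peak, and 1 of 10 with iAs (BHLHE40), where 5.17% did. HIF1α had 3 of 10 genes in control cells (BMAL1, PER2 and BHLHE40), against 16.7%, and 8 of 10 with iAs, against 42.6%. CLOCK and NR1D1 were the 2 genes without one. A HIF1α peak near the TSS with iAs and none there in control cells was found for 5 of 10 genes (PER1, PER3, CRY1, CRY2 and BHLHE41), where 27.7% of all genes showed this. PER1 is among them by its canonical TSS only, since HIF1α had a peak at the start of its longer transcript in both conditions.

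The iAs lists are longer than the control lists, so list length moved with these counts. When the 6008 widest HIF1α peaks were taken from both lists, 3 clock genes in control cells and 4 with iAs (BMAL1, PER2, CRY1 and BHLHE40) had a peak within 1 kb of the TSS, and the background was 16.7% and 26.0%. In the gene body or within 50 kb, HIF1α then had 4 clock genes in control cells and 7 with iAs, against 45.5% and 50.6%. The narrowest HIF1α peak kept with iAs measured 356 bp, while the control list was kept whole, down to 190 bp. For Nrf2 the order turned with the 3204 widest peaks of each list, since 2 clock genes had a peak in the gene body or within 50 kb in control cells and 1 with iAs, against a background of 20.0% and 20.4%. Here the narrowest peak kept with iAs measured 387 bp, above the width of every Nrf2 peak at BHLHE40 and BHLHE41. The control list was again kept whole, down to 189 bp, so only the iAs list was cut by width. At PER3 the control peak of 189 bp was kept, and the wider iAs peak of 201 bp over it was dropped. The turned order therefore cannot show a loss of Nrf2 peaks with iAs.

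**Figure D2:**
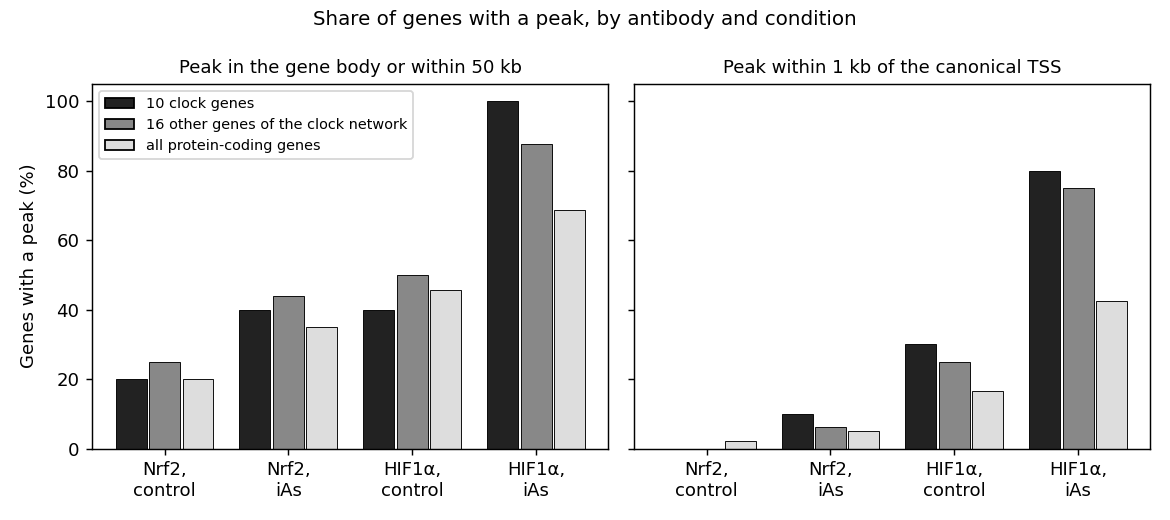
Percentage of genes with a peak in the gene body or within 50 kb (left) and within 1 kb of the canonical TSS (right), for the 10 clock genes, 16 other genes of the clock network and all protein-coding genes, with 1 library per bar group and so no error bars. The dark bar of the clock genes stands highest above the background for HIF1α with iAs, at 100% against 68.6% on the left and 80.0% against 42.6% on the right.

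BMAL1 (chr11:13298199-13408813, plus strand), the bHLH-PAS partner that gives the clock its rhythm, had peaks of both factors at separate places. Nrf2 lay deep in intron 3. The control peak there measured 746 bp at +61.0 kb and wider than 94.2% of its list, and the iAs peak was 1336 bp wide at +60.9 kb and wider than 97.2% of its list. The iAs peak covered the control peak entirely and was the widest of all 64 peaks at the clock genes. A second Nrf2 peak of 244 bp, at +61.8 kb, was iAs-only. The letters GCTGAGTCA printed above, which hold both the antioxidant core and an AP-1 site, begin 48 bp upstream of the centre of the iAs peak and lie within the control peak too. The window of the control peak, whose centre lies further downstream, does not reach these letters and holds an E-box that starts 93 bp from that centre and lies within both peaks.

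HIF1α was found at the start of BMAL1 instead. In control cells its peak was 204 bp wide at -0.235 kb, and with iAs the overlapping peak was 463 bp wide at -0.327 kb. Both contain the GCGTG core printed in the BMAL1 window above. With iAs, a further peak of 848 bp was called at +0.590 kb in intron 1, which was wider than 93.8% of its list and overlapped no control peak. The nearest edge of an Nrf2 peak was 60.2 kb from the BMAL1 TSS with iAs and 60.6 kb in control cells.

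CLOCK (chr4:56294070-56413076, minus strand), the partner of BMAL1, differed from it. It had no Nrf2 peak, no HIF1α peak in control cells, and with iAs only 2 HIF1α peaks of 226 and 225 bp. Both lay past the 3′ end of CLOCK, 31781 and 31338 bp from the gene, and 51 and 495 bp from the TSS of TMEM165, which is therefore the nearer gene. The nearest HIF1α peak to the CLOCK TSS was 150 kb away with iAs and 402 kb away in control cells, and the nearest Nrf2 peak was 1530 kb away in both conditions.

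PER1 (chr17:8043790-8059824, minus strand), an early responder of the clock to signals, had the most peaks of the 10 genes, and all of them were of HIF1α, with 7 in control cells and 9 under iAs. The only one at its canonical TSS was iAs-only, 243 bp wide, covering the TSS and centred at +0.0800 kb in intron 1. At the outer edge of the gene, where a longer transcript begins, HIF1α had a peak in both conditions, 266 bp wide at -4.14 kb in control cells and 416 bp wide at -4.13 kb with iAs. The E-box of this peak, printed above, starts 2 bp from the centre of the control peak and 11 bp from that of the iAs peak. A peak past the 3′ end went the other way in width, from 397 bp at +13.6 kb in control cells to 225 bp at +13.4 kb with iAs.

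The other PER1 peaks belonged by position to its neighbours. Around BORCS6, 4 HIF1α peaks of control cells faced 2 under iAs, with a peak of 409 bp at -37.8 kb and 759 bp at -37.6 kb in the respective lists and one of 394 bp in both. Control-only peaks of 745 and 310 bp lay at -34.7 and -35.3 kb, and another of 460 bp at -21.3 kb was nearest to TMEM107. The 745 bp peak was wider than 99.1% of its list and had no called counterpart with iAs. With iAs, HIF1α gained 3 peaks near HES7, of 494, 413 and 192 bp, and a peak of 618 bp at VAMP2, 0.273 kb from its TSS. The nearest Nrf2 peak to the PER1 TSS was 1680 kb away in control cells and 68.4 kb away with iAs, outside the search window.

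PER2 (chr2:239152685-239198743, minus strand), a core inhibitor of BMAL1 and CLOCK, had a HIF1α peak at its start in both conditions. It was 373 bp wide at -0.385 kb in control cells and 661 bp wide at -0.444 kb with iAs, where it covered the whole control interval. The D-box of the window printed above starts 57 bp from the centre of the control peak. A D-box was found in 1 of 12 HIF1α windows in control cells at clock genes (8.33%), against 0.566% of all such windows. With iAs it was found in 0 of 41, against 0.203%. The window of the PER2 start peak with iAs, whose centre lies further upstream, held none of the motifs. The D-box of the control window still lies within this iAs peak. With iAs, 5 more HIF1α peaks were called past the 3′ end of PER2. Of these, 4 of 213 to 316 bp clustered at the start of HES6, a bHLH repressor gene of the HES family, and 1 of 432 bp lay 0.596 kb from the TSS of ILKAP. All 5 were iAs-only. The nearest Nrf2 peak was 322 kb from the PER2 TSS in each condition.

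PER3 (chr1:7844351-7905237, plus strand), the least essential of the PER genes for the core loop, had peaks of both factors far apart. Nrf2 peaks lay at +110 kb, 48746 bp past the 3′ end and so just inside the 50 kb limit, with a width of 189 bp in control cells and 201 bp under iAs, and a separate iAs-only peak of 215 bp followed. The control peak was among the narrowest of its list. UTS2, 41.0 kb away, had the nearest TSS to this pair. HIF1α had no peak at PER3 in control cells, and its nearest lay 177 kb from the TSS. With iAs, a peak of 292 bp was called in intron 1 at +0.194 kb, and one of 188 bp at the neighbouring VAMP3 start, 0.454 kb from that TSS.

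CRY1 (chr12:107385142-107487327, minus strand) and CRY2 (chr11:45868669-45904799, plus strand) encode the cryptochromes, the strongest inhibitors of BMAL1 and CLOCK. Neither had a peak of any kind in control cells, and with iAs both had HIF1α peaks and no Nrf2 peak. At CRY1, a peak of 502 bp was centred at +0.382 kb in the 5′-UTR of exon 1 and one of 275 bp at -0.390 kb upstream, while another of 496 bp lay at TMEM263. At CRY2, a peak of 220 bp was centred at +0.116 kb in the coding part of exon 1. The 5 other peaks around CRY2 lay nearer to SLC35C1 (418 and 348 bp), FREY1 (209 bp), PEX16 (449 bp) and LARGE2 (239 bp). The nearest HIF1α peak in control cells was 319 kb from the CRY1 TSS and 390 kb from the CRY2 TSS.

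NR1D1 (chr17:38249046-38256842, minus strand), the REV-ERBα repressor of BMAL1, resembled CLOCK in having no peak in its body or near its TSS. It had 5 HIF1α peaks with iAs and none in the 3 other libraries. These lay nearest to THRA (510 and 227 bp), MSL1 (195 and 310 bp) and CASC3 (259 bp). THRA is the thyroid hormone receptor gene that overlaps NR1D1 tail to tail. The nearest edge of a HIF1α peak with iAs was 20.9 kb from the NR1D1 TSS, and in control cells it was 120 kb away.

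BHLHE40 (chr3:5021122-5027008, plus strand), the DEC1 repressor, was the only listed clock gene where peaks of Nrf2 and HIF1α overlapped. Such overlaps were not particular to it, since NPAS2, NR1D2 and CSNK1D of the wider clock network had them as well. At NPAS2, Nrf2 peaks of both conditions overlapped a HIF1α control peak at +82.9 kb. At CSNK1D, the Nrf2 peaks at +56.1 kb overlapped HIF1α peaks of both conditions, but they lay past the 3′ end and nearer to the TSS of CCDC57. At BHLHE40, Nrf2 had no peak in control cells, and the nearest was 2330 kb from the TSS. With iAs it had 4 peaks, all iAs-only. They were 354 bp wide at +1.10 kb in intron 3, 181 bp at +7.53 kb, 377 bp at +15.7 kb and 328 bp at +16.2 kb, the last 3 past the 3′ end. The edge of the first was 0.920 kb from the TSS, just inside the 1 kb limit, and the 181 bp peak was among the narrowest of its list.

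HIF1α was already present at BHLHE40 in control cells, with peaks of 434 bp at -0.741 kb, 386 bp at +7.59 kb and 329 bp at +44.1 kb. The first 2 had a wider counterpart with iAs, of 807 bp at -0.761 kb and 507 bp at +7.61 kb, and the third was control-only. The 807 bp peak was wider than 92.6% of its list. Further peaks were called with iAs at +0.321 kb in the coding part of exon 1 (428 bp) and at +1.01 kb in intron 3 (251 bp). The Nrf2 peak at +1.10 kb overlapped the HIF1α peak at +1.01 kb, and the Nrf2 peak at +7.53 kb overlapped HIF1α peaks of both conditions. Over the whole lists, 1136 of the 7743 Nrf2 peaks with iAs (14.7%) overlapped a HIF1α peak with iAs.

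**Figure D3:**
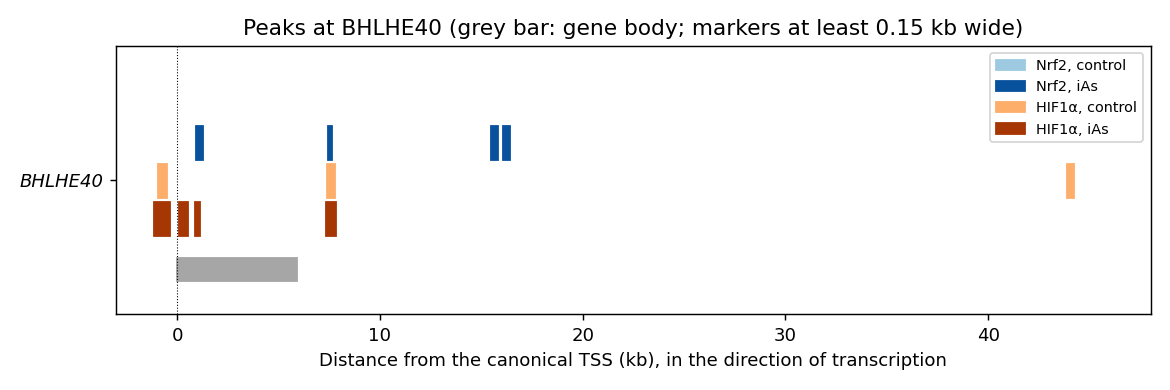
Peaks of the 4 libraries at BHLHE40 by distance from the canonical TSS in kb, drawn at least 0.15 kb wide, with the gene body as a grey bar. Nrf2 appears with iAs at 4 places, and its peaks at +1.10 and +7.53 kb lie over HIF1α peaks.

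BHLHE41 (chr12:26272963-26277970, minus strand), the DEC2 repressor, had no peak of either factor in control cells. With iAs, Nrf2 had a peak of 372 bp at +10.9 kb, past the 3′ end, whose window holds the antioxidant core TGACACAGC. In control cells the nearest Nrf2 peak was 90.3 kb from the TSS. HIF1α with iAs had a peak of 188 bp that covered the TSS, centred at +0.0330 kb in the 5′-UTR, and one of 271 bp at -1.54 kb. The edge of the latter was 1402 bp from the TSS, just outside the 1 kb limit. The TSS peak was among the narrowest of its list. Each of the 2 HIF1α windows holds an E-box.

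**Figure D4:**
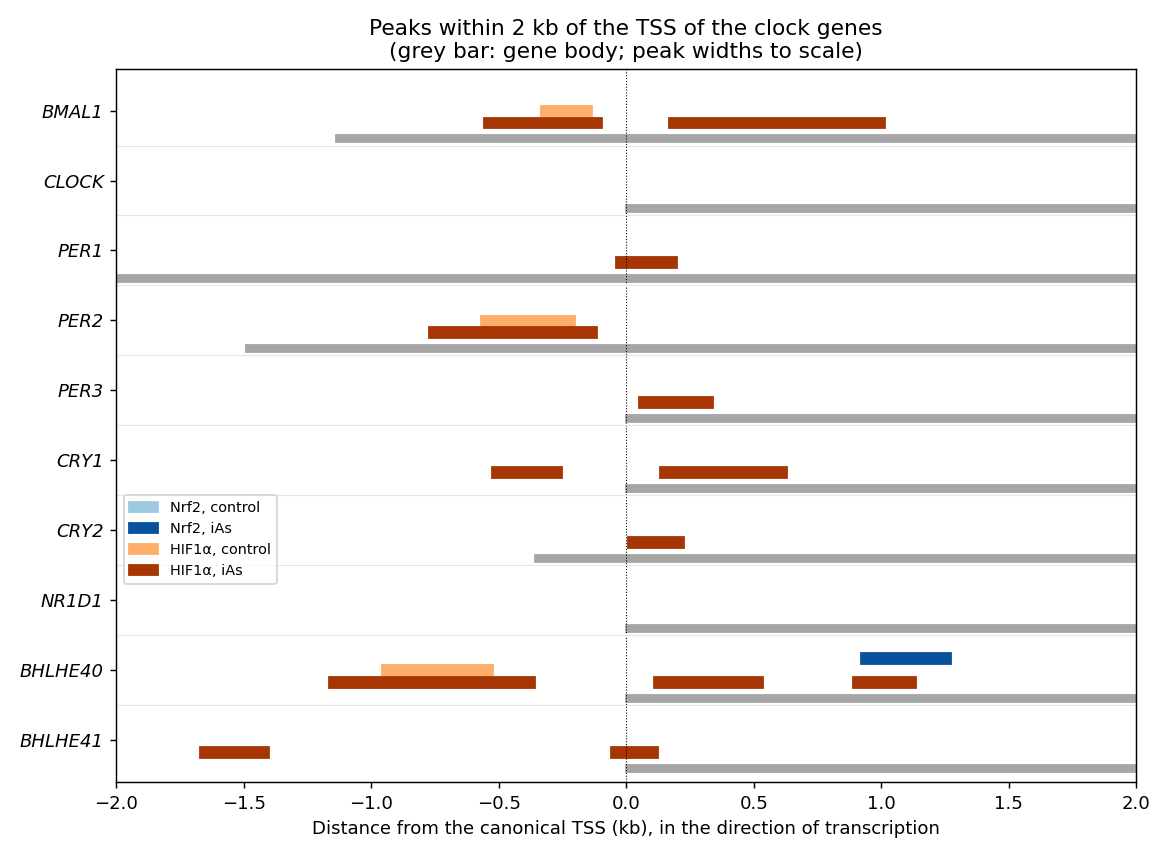
Peaks within 2 kb of the canonical TSS of each clock gene, in kb, with widths to scale and the gene body as a grey bar. HIF1α peaks of control cells appear at BMAL1, PER2 and BHLHE40, HIF1α peaks with iAs at all genes but CLOCK and NR1D1, and an Nrf2 peak at BHLHE40 alone.

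Counted by peaks, 7 of the 9 Nrf2 peaks with iAs at the clock genes (77.8%) were iAs-only, as were 62.0% of the whole list. For HIF1α, 33 of 41 (80.5%) were iAs-only, against 75.2% of the whole list. Counted by genes, 4 of 10 had an iAs-only Nrf2 peak, where 25.4% of all genes did, and 10 of 10 had an iAs-only HIF1α peak, where 59.6% did. At BMAL1 and PER3, however, the iAs-only Nrf2 peak lay within 1 kb of an Nrf2 control peak. If peaks that close are treated as shared, 5 iAs-only Nrf2 peaks remain, all at BHLHE40 and BHLHE41. The share of all genes was not recomputed in this way. Control-only HIF1α peaks were 4 of 12 (33.3%), against 46.3% of the whole list, and were found at 2 of 10 genes (PER1 and BHLHE40), where 19.9% of all genes had one. Both Nrf2 peaks of control cells overlapped an Nrf2 peak with iAs.

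Of the control peaks at the clock genes with an overlapping iAs peak, 2 of 2 for Nrf2 and 6 of 8 for HIF1α were wider with iAs. Over all such control peaks this held for 92.2% of Nrf2 peaks and 77.4% of HIF1α peaks, so the clock gene peaks were near the background. The exceptions for HIF1α were both at PER1, where 1 pair was equal in width and 1 was narrower with iAs.

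**Figure D5:**
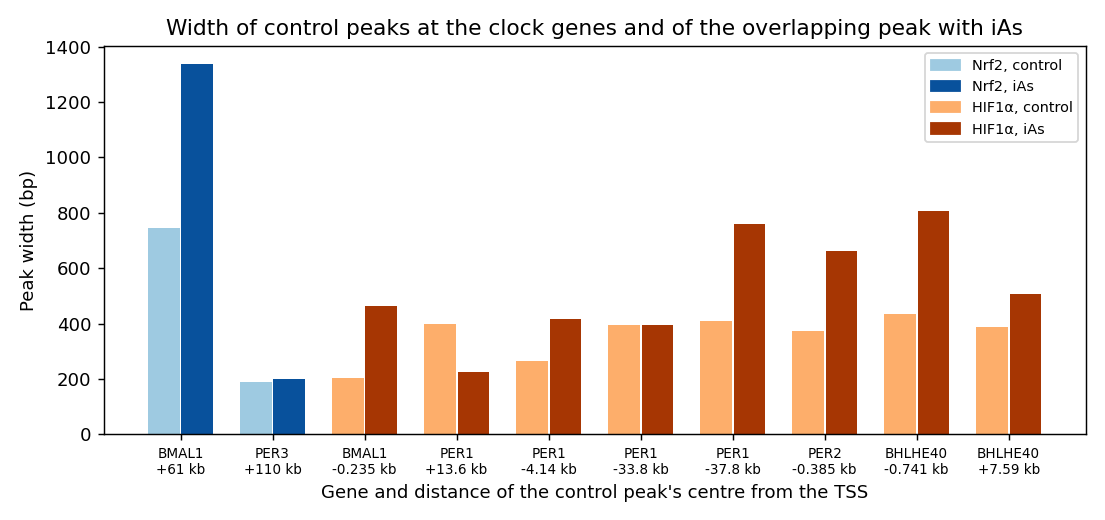
Width in bp of each control peak at a clock gene and of the iAs peak of the same factor that overlaps it, by gene and distance of the control peak from the TSS. The iAs bar is the taller one except at PER1 -33.8 kb, where both are 394 bp, and at PER1 +13.6 kb, where it falls from 397 to 225 bp.

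The motif letters were counted in the windows of all peaks of each list for comparison. An AP-1 site was found in 5 of the 9 Nrf2 windows with iAs at clock genes (55.6%), against 38.3% of all Nrf2 windows with iAs, and the antioxidant core in 3 of 9 (33.3%), against 31.6%. The AP-1 sites were at BMAL1, PER3 and 3 of the 4 BHLHE40 peaks, and the antioxidant cores at BMAL1, PER3 and BHLHE41. None of the 41 HIF1α windows with iAs held an AP-1 site, where 2.39% of all did. In control cells 1 of 12 did (8.33%), against 14.5%. HIF1α windows also held the antioxidant core, in 2 of 12 in control cells (16.7%, against 12.8%) and 2 of 41 with iAs (4.88%, against 10.1%). The hypoxia core was found in 7 of 12 HIF1α windows in control cells (58.3%), against 47.7%, and in 15 of 41 with iAs (36.6%), against 52.4%. An E-box was found in 1 of 12 HIF1α windows in control cells (8.33%), against 6.89%, and in 4 of 41 with iAs (9.76%), against 5.79%. The 4 were at PER1, at the SLC35C1 start near CRY2 and at both BHLHE41 peaks. The BHLHE40 window at +15.7 kb printed above held the one E-box among the 9 Nrf2 windows with iAs, where 3.58% of all such windows had one.

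Around the core loop, 16 other genes of the clock network were searched in the same way: NPAS2, BMAL2, NR1D2, RORA, RORB, CIART, DBP, TEF, HLF, NFIL3, CSNK1D, CSNK1E, BTRC, FBXW11, USP2 and TIMELESS. An Nrf2 peak in the gene body or within 50 kb was found at 4 of 16 in control cells (25.0%, against 20.0% of all genes) and at 7 of 16 with iAs (43.8%, against 35.0%). HIF1α had one at 8 of 16 in control cells (against 45.5%) and at 14 of 16 with iAs (87.5%, against 68.6%). Within 1 kb of the TSS, Nrf2 had 0 of 16 in control cells (background 2.32%) and 1 of 16 with iAs (6.25%, against 5.17%). HIF1α had 4 of 16 there in control cells (25.0%, against 16.7%) and 12 of 16 with iAs (75.0%, against 42.6%), and 8 of 16 (against 27.7%) had one with iAs and none in control cells. The Nrf2 shares and the HIF1α share within 50 kb in control cells were thus near the background.

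The second REV-ERB gene, NR1D2, differed from NR1D1 in carrying peaks of both factors near its start with iAs. Its Nrf2 peak of 373 bp at +1.12 kb overlapped an Nrf2 peak of control cells and a HIF1α peak of 597 bp at +0.852 kb that was called with iAs only. NPAS2, a paralog of CLOCK, had a HIF1α peak of 214 bp at +0.420 kb with iAs, and BMAL2 had peaks of 188 bp at -0.0580 kb and 564 bp at +0.484 kb. The D-box activators DBP, TEF and HLF each had a HIF1α peak near the TSS with iAs and none there in control cells, with widths of 365 and 210 bp at DBP, 393 bp at TEF and 189 bp at HLF. Their repressor counterpart NFIL3 had one in both conditions, 201 bp wide in control cells and 287 bp wide under iAs, and a second of 676 bp at -0.576 kb with iAs.

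The kinases that phosphorylate PER proteins were also among these genes. At the CSNK1D TSS a HIF1α peak measured 234 bp in control cells and 559 bp under iAs, and CSNK1E had peaks of 425 and 361 bp with iAs only. At FBXW11, a subunit of the ubiquitin ligase that acts on PER proteins, control peaks of 197 and 304 bp were replaced in the iAs list by 1 peak of 992 bp that overlapped both. The TIMELESS peak measured 388 bp in control cells and 362 bp under iAs, and USP2 one of 188 bp with iAs only.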

How the data were processed

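Processed files gave the peaks of 4 ChIP-seq libraries from BEAS-2B cells, 1 per antibody and condition, grouped by the sample labels. The input DNA sample was not analysed here. Per the labels and the submitters' processing notes, reads were aligned to hg19 with BWA and peaks called with MACS2 2.1.0, while the methods name MACS or SICER and say that tags were down-sampled to the smallest sample. The deposited values used here are base positions of peak starts and ends, made by the authors, with no height, score or read count beside them, so depth and precision are unknown here.

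Starts were changed from 0-based to 1-based. Genes were those of GENCODE release 44 on GRCh37 with their canonical TSS, leaving out mitochondrial genes, and the chromosome lengths of the reference fitted all 24 chromosomes with peaks. Python 3.11.15, NumPy 2.4.6 and Matplotlib 3.10.9 were used. Overlap needed 1 bp or more. No test was run, since each group had 1 library. Counts are given beside the same count over all protein-coding genes or all peaks. The steps were tested on simulated data. The clock genes, the network genes, the motifs and the alternatives were chosen with earlier results of these data known. All 10 clock genes were described with all their peaks. The network list had 2 more genes, which are not reported here and are left out of its counts. A network gene was named for its values where it had a peak within 1 kb of its TSS, and a neighbour where its TSS was nearer to a described peak. The authors' merged regions were not used.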

Additional observations from a re-analysis of the deposited data

How the results depend on the processing

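The lists hold no heights, so width stood for strength, and peaks of 1 library say nothing of variation between cultures. Over 9 alternatives, 45 of 70 recomputed counts stayed within 1.5 times the reported value, and the other 25 follow. Within 10 kb, Nrf2 in control cells had 1 peak at 1 clock gene, and HIF1α had 6 control peaks and 21 with iAs, 15 of them iAs-only. With the wider 50% of each list, Nrf2 had 1 peak at 1 gene in control cells and 4 peaks with iAs, 3 of them iAs-only, and HIF1α with iAs had 19 peaks, 14 of them iAs-only, with 4 genes having one near the TSS. With equal numbers of the widest peaks, Nrf2 with iAs had 1 peak at 1 gene, 0 genes with one near the TSS and 0 iAs-only peaks, and HIF1α with iAs had 18 peaks, 11 of them iAs-only, and 4 genes with one near the TSS. Under this setting the Nrf2 count no longer rose with iAs, but only the iAs lists were cut by width. Merging peaks under 500 bp apart left 4 iAs-only Nrf2 intervals. With only peaks for which the clock gene had the nearest TSS, Nrf2 in control cells had 1 peak at 1 gene, and HIF1α had 7 control peaks and 16 with iAs, 10 of them iAs-only. The limits of 3 kb around the TSS, any annotated TSS, a reciprocal overlap of 50% and a gap of 1 kb moved no count past 1.5 times. The number of genes with an iAs-only peak was not among the recomputed counts. No paired analysis was possible because each group had 1 library.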

Other observations

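The genes whose 4 peak counts were most like those of PER1, the clock gene with the most peaks, were looked up over all protein-coding genes. PER1 had 0 and 0 Nrf2 peaks and 7 and 9 HIF1α peaks without and with iAs. ESYT1, an extended synaptotagmin gene, had the same 4 counts, and BRMS1 had 0, 0, 6 and 9. BRMS1 is the first by alphabet of several genes tied at a Euclidean distance of 1.00 over the 4 counts. Their search windows do not overlap that of PER1.

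Promoters from 250 bp upstream to 50 bp downstream of a start were taken from RefSeq sequences of the GRCh38.p14 assembly, whose starts need not be the canonical TSS used above, and searched for the same letters on both strands. All 10 clock genes matched, with 14 promoters, and a gene was counted where any of its promoters held the letters. The background is the same count over 27305 genes with 35116 promoters, non-coding genes included. An E-box was found in 3 of 10 (PER1, BHLHE40 and BHLHE41), against 8.77% of all genes. The hypoxia response core was found in 9 of 10, all but BMAL1, against 52.4%, and the antioxidant response core in 5 of 10 (CLOCK, PER1, PER2, CRY1 and CRY2), against 16.1%. No AP-1 site was found at the 10 genes, where 6.05% of all genes held one. The ROR and REV-ERB element (AGGTCA) was found in BMAL1, PER1 and CRY2, against 16.5%, and the D-box in PER2 and PER3, against 1.27%. These matches are letters in a window and were not tested against binding.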
